A study of Mus musculus with 12 samples.

Results

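The annexins described here are the 10 mouse genes Anxa1 to Anxa9 and Anxa11, found by symbol among the 55491 genes of the deposited tables. The members were chosen by family name with earlier results of these data in view, and which measured values entered that choice is not recorded. The set coincides with the annexin genes that had counts in all 12 libraries. Its levels and its differences between groups are therefore a description, and the adjusted p-values below only set each difference beside the spread between libraries. Just inside that border lay Anxa9, with 14 to 41 counts per library. Just outside lay Anxa13, with 0 to 2 counts, and Anxa10, with 0 counts in all 12 libraries. All 10 members passed the filter on low counts, which left 13513 genes to be tested.

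PT-22 is a mouse kidney line labelled as proximal tubule, the nephron segment that reclaims most of the filtrate. All 12 libraries carry the genotype Pax2-/-, Pax8fl/fl, Rosa-CreERT2: Pax2 is lost in all of them, controls included, Pax8 can be excised by Cre, and Cre itself is a tamoxifen-dependent form placed at the broadly active Rosa locus. Polyadenylated RNA was sequenced from 3 untreated control libraries taken at baseline and from 3 libraries each labelled day 2, day 6 and day 12, from cells given 1 µM 4-hydroxytamoxifen. The labels do not say if days count from the start or the end of the treatment, which lasted 2 days and was meant to deplete PAX8 in confluent cells. PAX8 is a transcription factor of the kidney epithelium. Libraries are lettered A, B and C within a group. The labels say neither if the libraries are separate cultures nor if the line is a single clone. The p-values therefore speak to library spread alone, which may be technical. Every treated group differs from control in drug and time in culture and, by design, in Cre activity and the Pax8 allele. These differences cannot be told apart. In bulk RNA, a change in the share of cells that express a gene and a change in RNA per cell cannot be told apart either.

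Library totals ran from 4326667 counts (day 2 B) to 11654959 counts (day 2 C). The Pax8 transcript stood at 169 to 172 TPM in control, 279.9 to 321 TPM at day 2, 172 to 221 TPM at day 6 and 174 to 207 TPM at day 12. Gene-level values take in exons outside a deleted part, so they check neither the deletion nor the labels. TPM scales each library to one fixed total of transcripts and corrects for transcript length, so it is the scale used here to compare levels between genes. Of 15 genes listed here as proximal tubule markers, the cadherin genes Cdh16 and Cdh6 stood at 701 and 137 TPM in control. Slc34a1 and Slc5a2, transporters that define the mature segment, had no count in any library. How far each listed marker is particular to this segment was not tested. The summed level of these markers was 1038 to 1165 TPM in control and 424 to 546 TPM at day 12. Aqp1, a water channel gene, made up 108 TPM of it in control and 427 TPM at day 12, and the other 14 markers together went from 934 to 1055 TPM in control to 64.2 to 71.4 TPM at day 12. Most of that fall was in Cdh16 alone, which went from 701 to 26.4 TPM, while Cdh6 went from 137 to 19.7 TPM. Against control, 7 of 9 tested markers were lower and 1, Aqp1, was higher at each of the 3 days.

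Annexins are proteins that bind negatively charged phospholipids, phosphatidylserine above all, when calcium rises. Each has a conserved core of repeated domains that docks on the membrane and an N-terminal tail that differs between members and carries the binding sites for partners such as S100 proteins. They act in membrane traffic, in the sealing of plasma membrane wounds and, outside the cell, in plasminogen activation and the control of inflammation. In injured kidney epithelium several of them are known to be induced.

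The summed annexin level was higher at each later labelled day. The 10 genes together made up 1631 to 1688 TPM in the control libraries, 1884 to 2237 TPM at day 2, 2439.7 to 2475 TPM at day 6 and 2598 to 2809 TPM at day 12, with no overlap between the 4 groups. Against control, 6 of the 10 members were higher at day 2 and 0 lower by edgeR's quasi-likelihood test at an adjusted p under 0.05, where 10.3% of all tested genes were called higher and 10.9% lower. At day 6, 7 were higher and 2 lower (26.8% and 27.6% of all genes), and at day 12 again 7 were higher and 2 lower (26.1% and 26.6% of all genes). The median log2 fold change of the members was 0.42 at day 2, 0.62 at day 6 and 0.67 at day 12, beside medians over all tested genes of -0.0015, -0.0060 and -0.0028. The scaling of counts is built to place the bulk of genes near 0, so these all-gene medians are no separate baseline. With limma on log2(TPM + 1) the all-gene medians were -0.029, 0.086 and 0.038. Changes of at least 2-fold were called in 0 members at day 2, in 2 at day 6 and in 4 at day 12 (4.31%, 13.3% and 13.7% of all genes). Libraries did not overlap with control in TPM for 7 members at day 2 and 9 at each of days 6 and 12 (27.3%, 53.4% and 51.7% of all genes). Because the members were picked with results in view, these counts are a description of the family and are read no further.

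**Figure D1:**
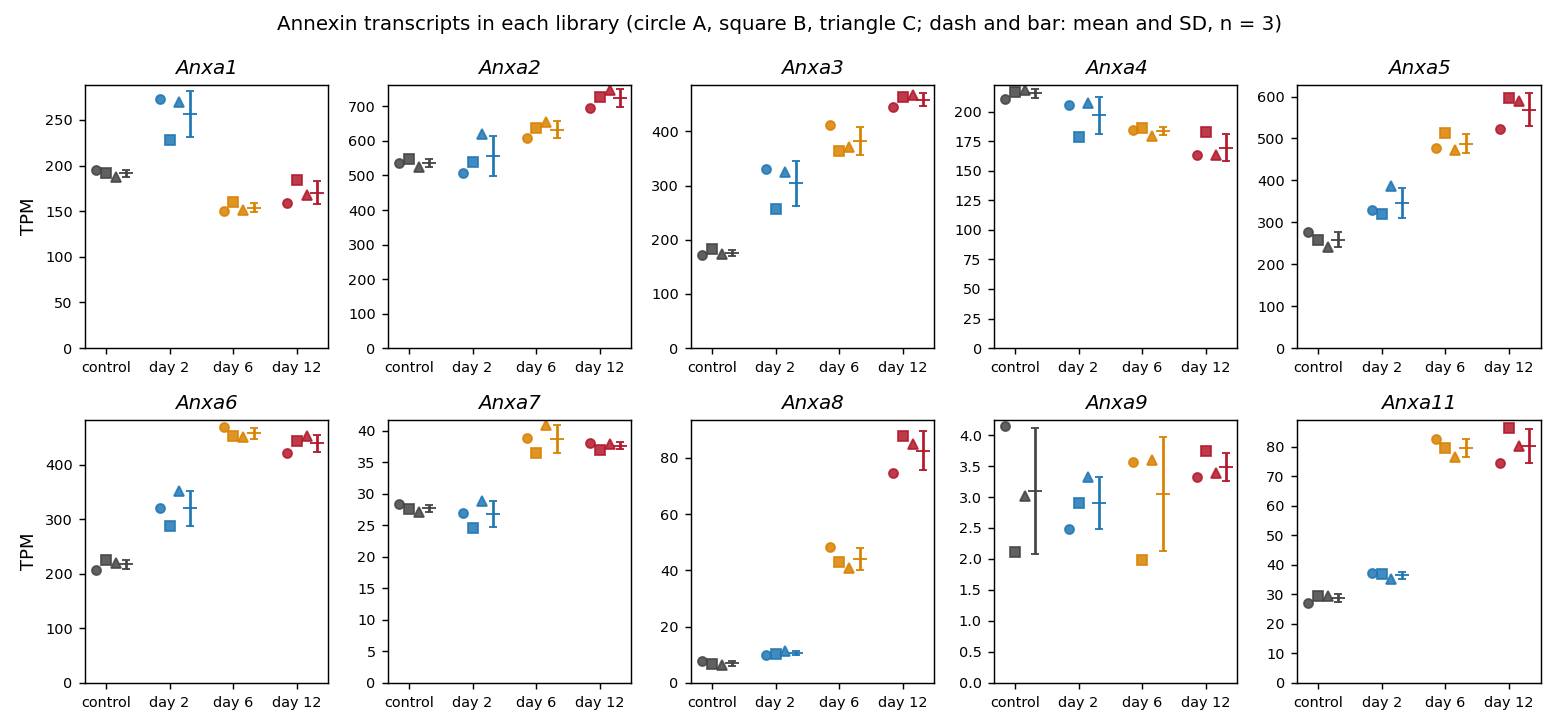
TPM of the 10 annexin genes in each of the 12 libraries, 1 panel per gene with its own axis from 0. Points are libraries (circle A, square B, triangle C) and the dash with its bar is the mean ± SD of 3 libraries. Anxa8 climbs from 6.23 to 7.92 TPM in control to between 74.8 and 87.8 TPM at day 12, while Anxa1 is highest at day 2.

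The promoters of 4 members are shown because these genes followed different courses: Anxa8 rose at every step, Anxa11 rose up to day 6, Anxa4 fell, and Anxa2 rose late. The letters are from RefSeq, build GRCm38.p6, read 5′ to 3′ on the gene's own strand and stopping before the RefSeq start site, and for Anxa2 before the earlier exon that GENCODE M21 places there. Anxa8 is chr14:34085729-34085978 (plus strand), Anxa11 is chr14:25841905-25842154 (plus strand), Anxa4 is chr6:86793585-86793834 (minus strand) and Anxa2 is chr9:69453433-69453619 (plus strand). Capitals mark matches to a searched motif, the NF-kB motif in Anxa4 and the AP-1 motif, on the minus strand, in Anxa2.
Anxa8: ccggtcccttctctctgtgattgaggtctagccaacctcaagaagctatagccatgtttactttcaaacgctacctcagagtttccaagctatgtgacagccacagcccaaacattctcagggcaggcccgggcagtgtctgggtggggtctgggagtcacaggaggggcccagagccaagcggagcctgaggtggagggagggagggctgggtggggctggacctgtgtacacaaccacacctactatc
Anxa11: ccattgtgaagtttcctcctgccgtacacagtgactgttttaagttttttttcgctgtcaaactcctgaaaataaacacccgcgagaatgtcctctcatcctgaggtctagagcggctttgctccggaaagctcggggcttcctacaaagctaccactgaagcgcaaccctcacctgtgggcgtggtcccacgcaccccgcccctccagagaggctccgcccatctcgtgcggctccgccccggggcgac
Anxa4: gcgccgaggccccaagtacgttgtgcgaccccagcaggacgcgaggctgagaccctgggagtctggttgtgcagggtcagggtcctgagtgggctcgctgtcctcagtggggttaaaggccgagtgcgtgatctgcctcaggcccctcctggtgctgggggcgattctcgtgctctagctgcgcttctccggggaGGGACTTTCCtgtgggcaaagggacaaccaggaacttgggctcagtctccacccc
Anxa2: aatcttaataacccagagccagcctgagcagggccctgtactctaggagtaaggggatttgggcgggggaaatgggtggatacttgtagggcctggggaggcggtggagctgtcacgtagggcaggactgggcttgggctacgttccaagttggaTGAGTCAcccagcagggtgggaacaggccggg

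A set of 6 motifs was searched on both strands of windows from 250 bases before to 50 bases after each RefSeq start: TGACTCA (AP-1), GGAATG (TEAD), GTCACGC (the core of the PAX paired-domain site), TGNACTTTG (HNF4), the NF-kB consensus and TATAAA (the TATA box). Of the members, 8 had windows, 11 in all, and Anxa3 and Anxa6 had none. Matches lay in 3 members. Anxa4 held the NF-kB letters 55 bases before its start, which 1.63% of all 32851 windows hold. Anxa2 held the AP-1 letters at 95 bases before its start (5.2% of all windows) and TATAAA at 17 bases before it. Anxa1 held TATAAA at 32 bases before its start (13.6% of all windows). It also held the TEAD letters at 236 bases before that start (14.7% of all windows). These starts are those of RefSeq, and GENCODE M21 begins Anxa1 and Anxa2 further upstream. The whole Anxa1 window, and the TATAAA of Anxa2, thus lie inside the GENCODE gene spans. The windows of Anxa5, Anxa7, Anxa8, Anxa9 and Anxa11 held none of these letters. The PAX core (2.09% of all windows) and the HNF4 motif (1.41%) were in 0 of the 11 member windows, which says only that these letters are not in these windows.

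Anxa1 and Anxa2 are the members with well-described roles at the cell surface. Anxa1, which binds S100A11 and acts on formyl peptide receptors to limit inflammation, lies on chromosome 19 (20373428 to 20390944, minus strand, GRCm38). It stood at 195, 192 and 188 TPM in control libraries A, B and C, at 273, 228 and 269.6 TPM at day 2, at 151, 159.6 and 151 TPM at day 6 and at 159, 184 and 168 TPM at day 12. All day 2 libraries lay above all control libraries, and all day 6 and day 12 libraries lay below them. The log2 fold change against control was 0.47 ± 0.06 (SE) at day 2 (edgeR adjusted p = 2.23e-07), -0.42 ± 0.06 at day 6 (edgeR adjusted p = 6.19e-07) and -0.20 ± 0.06 at day 12 (edgeR adjusted p = 0.00586). It was the only member called in opposite directions at different days. From day 2 to day 6 its log2 level fell by 0.89 (SE 0.06, edgeR adjusted p = 6.45e-14). With limma on log2(TPM + 1) the day 12 difference was -0.17 and missed the threshold (adjusted p = 0.0981).

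Anxa2 binds S100A10 in a complex that gathers plasminogen and its activator on the surface, and by TPM it was the most abundant annexin in all 12 libraries. Its gene lies on chromosome 9 (69453620 to 69491795, plus strand). It stood at 536, 549 and 525 TPM in the control libraries and 508, 538 and 619.6 TPM at day 2, at 607, 637 and 655 TPM at day 6 and at 696, 726 and 748 TPM at day 12. Day 2 overlapped control, and all day 6 and day 12 libraries lay above control. The log2 fold change was 0.07 ± 0.06 (SE) at day 2, where it was not called (edgeR adjusted p = 0.469), 0.15 ± 0.06 at day 6 (edgeR adjusted p = 0.0237) and 0.38 ± 0.06 at day 12 (edgeR adjusted p = 9.72e-07). The day 6 call was lost without control A, control C, day 6 B or day 6 C (edgeR adjusted p = 0.0660, 0.153, 0.0625 and 0.101, in a range of 0.00640 to 0.153 over the 12 libraries left out in turn).

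The S100 partners did not keep the same course. S100a10, the light chain of the Anxa2 complex, stood at 663 ± 51.4 TPM (SD, n = 3) in control, 897 ± 39.8 TPM at day 2, 800.5 ± 40.7 TPM at day 6 and 712 ± 14.2 TPM at day 12. It was higher than control at day 2 (log2 fold change 0.52, edgeR adjusted p = 6.70e-09) and day 6 (0.23, edgeR adjusted p = 8.74e-04), and at day 12 its difference of 0.10 was not called (edgeR adjusted p = 0.146). The ratio of Anxa2 to S100a10 in TPM was 0.813 ± 0.0574 (SD, n = 3) before treatment, then 0.618 ± 0.0480 by day 2, 0.793 ± 0.0623 by day 6 and 1.02 ± 0.0173 by day 12. S100a11, the partner of Anxa1, rose at day 2 alone among the 3 days, from 1377 ± 60.5 to 1994 ± 85.045 TPM (log2 fold change 0.65, edgeR adjusted p = 3.14e-10). At days 6 and 12 it stood at 1343 ± 64.5 and 1308 ± 60.3 TPM and was not called (edgeR adjusted p = 0.626 and 0.578). The ratio of Anxa1 to S100a11 stayed between 0.115 ± 0.00883 (day 6) and 0.139 ± 0.00512 (control).

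Anxa5, Anxa6 and Anxa4 are annexins of the inner face of membranes. Anxa5 binds phosphatidylserine, forms lattices on it and is used as the stain for dying cells. Its gene lies on chromosome 3 (36448923 to 36475894, minus strand). It stood at 277, 258 and 241 TPM in control, at 331, 320.1 and 386 TPM at day 2, at 477, 514 and 472 TPM at day 6 and at 522, 596 and 589 TPM at day 12. The 4 groups did not overlap at any step. Its log2 fold change against control was 0.50 ± 0.06 (SE) at day 2 (edgeR adjusted p = 6.86e-08), 0.86 ± 0.06 at day 6 (edgeR adjusted p = 2.33e-14) and 1.12 ± 0.06 at day 12 (edgeR adjusted p = 1.65e-17). The step from day 6 to day 12 was 0.26 ± 0.06 (edgeR adjusted p = 0.00156), and with limma on log2(TPM + 1) it was 0.22 and missed the threshold (adjusted p = 0.121).

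Anxa6 has a doubled core and acts in endosome and cholesterol traffic. Its gene lies on chromosome 11 (54979108 to 55033445, minus strand), and its longest coding transcript has 26 exons where those of the other members have 12 to 15. It stood at 207, 224 and 219.96 TPM in control, at 321, 287 and 352 TPM at day 2, at 469, 453 and 449.6 TPM at day 6 and at 422, 443 and 452 TPM at day 12. Days 6 and 12 overlapped each other and lay above day 2, which lay above control. Its log2 fold change against control was 0.59 ± 0.06 (SE) at day 2 (edgeR adjusted p = 4.53e-10), 0.98 ± 0.06 at day 6 (edgeR adjusted p = 1.88e-16) and 0.96 ± 0.06 at day 12 (edgeR adjusted p = 2.14e-16). Between days 6 and 12 the difference was -0.01 ± 0.06 (edgeR adjusted p = 0.911).

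Anxa4, an annexin of epithelia that assembles on membranes, was the one member called lower at days 6 and 12 without having been higher earlier. Its gene lies on chromosome 6 (86736840 to 86793584, minus strand). It stood at 211, 217 and 219 TPM in control, at 205, 179 and 207 TPM at day 2, at 184, 186 and 179.5 TPM at day 6 and at 163, 182 and 163 TPM at day 12. In TPM, every treated library lay below every control library. In counts scaled to library size (CPM), day 2 A, at 236 CPM, lay above control A and control C, at 229.8 and 233 CPM. The log2 fold change was -0.06 ± 0.06 (SE) at day 2, where it was not called (edgeR adjusted p = 0.501), -0.35 ± 0.06 at day 6 (edgeR adjusted p = 3.41e-06) and -0.43 ± 0.06 at day 12 (edgeR adjusted p = 7.12e-08). The ratio of Anxa5 to Anxa4 in TPM went from 1.20 ± 0.107 in control to 1.76 ± 0.131 at day 2, 2.66 ± 0.0882 at day 6 and 3.36 ± 0.218 at day 12.

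Anxa7 and Anxa11 are the members with long N-terminal tails. Anxa7, a membrane-fusing annexin that binds sorcin, lies on chromosome 14 (20455260 to 20480133, minus strand). It stood at 28.3, 27.6 and 27.1 TPM in control, at 26.9, 24.6 and 28.8 TPM at day 2, at 38.8, 36.4 and 40.9 TPM at day 6 and at 38.0, 37.0 and 38.0 TPM at day 12. Control and day 2 overlapped, as did days 6 and 12, and the later pair lay above the earlier pair. Its log2 fold change was 0.38 ± 0.07 (SE) at day 6 (edgeR adjusted p = 6.76e-05) and 0.36 ± 0.07 at day 12 (edgeR adjusted p = 1.18e-04), after -0.0012 ± 0.079 at day 2 (edgeR adjusted p = 0.994). The gene of its partner sorcin, Sri, was higher by 0.57 at day 6 (edgeR adjusted p = 7.53e-07) and by 0.82 at day 12 (edgeR adjusted p = 3.01e-10). With limma on log2(TPM + 1) the difference of Sri at day 6 was 0.46 and missed the threshold (adjusted p = 0.0589).

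Anxa11 binds S100A6 and the calcium sensor ALG-2 and tethers RNA granules to lysosomes. Its gene lies on chromosome 14 (25842156 to 25886804, plus strand). It stood at 27.1, 29.5 and 29.6 TPM in control, at 37.3, 37.0 and 35.03 TPM at day 2, at 82.8, 79.6 and 76.4 TPM at day 6 and at 74.7, 86.2 and 80.1 TPM at day 12. Control, day 2 and the later pair of groups did not overlap, and days 6 and 12 overlapped each other. Its log2 fold change was 0.36 ± 0.08 (SE) at day 2 (edgeR adjusted p = 8.96e-04), 1.38 ± 0.07 at day 6 (edgeR adjusted p = 2.04e-17) and 1.44 ± 0.07 at day 12 (edgeR adjusted p = 4.17e-18). Anxa11 shares stretches of 50 bases with the pseudogenes Gm2260 and Gm2274, which had 0 to 59 and 0 to 66 counts per library beside 240 to 1120 for Anxa11, so reads could be split between them. Summing the 3 gave 44.2 ± 2.28 CPM (counts scaled to library size, SD, n = 3) in control and 117 ± 6.34 CPM at day 12, a fold of 2.66 beside 2.703 for Anxa11 alone.

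The partners of Anxa11 moved differently from each other. S100a6 rose from 1024 ± 39.4 TPM in control to 1680.0 ± 311 TPM at day 2 and stood at 1622 ± 109 and 1552 ± 50.8 TPM at days 6 and 12 (edgeR adjusted p = 2.64e-12, 2.42e-09 and 1.83e-08). Pdcd6, which encodes ALG-2, was not called at any of the 3 days, with log2 fold changes of 0.03, 0.05 and 0.07 (edgeR adjusted p = 0.831, 0.578 and 0.395).

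Anxa8, an annexin of late endosomes and of stratified epithelia, made the largest change of the family at days 6 and 12. Its gene lies on chromosome 14 (34085981 to 34100571, plus strand). It stood at 7.92, 6.58 and 6.23 TPM in control, at 10.02, 10.2 and 11.3 TPM at day 2, at 48.3, 43.0 and 40.9 TPM at day 6 and at 74.8, 87.8 and 85.01 TPM at day 12. Each control library gave 54 to 74 counts for it and each day 12 library 679 to 870, and no groups overlapped. It was 1.56-fold higher at day 2 (edgeR adjusted p = 8.92e-04), 6.00-fold higher at day 6 (edgeR adjusted p = 5.30e-20) and 11.5-fold higher at day 12 (edgeR adjusted p = 8.36e-25). Its log2 fold change at day 12, 3.53 ± 0.11 (SE), ranked 151 among the rises of the 13513 tested genes. Both steps between treated days were called, 1.94 ± 0.11 from day 2 to day 6 (edgeR adjusted p = 1.06e-16) and 0.94 ± 0.08 from day 6 to day 12 (edgeR adjusted p = 5.13e-11).

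Anxa3, a calcium-dependent membrane binder with a short N-terminal tail, lies on chromosome 5 (96793339 to 96845966, plus strand). It stood at 171, 182 and 173 TPM in control, at 331, 257 and 325 TPM at day 2, at 411, 364 and 371 TPM at day 6 and at 445, 463 and 468 TPM at day 12. No groups overlapped. At 0.85 ± 0.07 (SE), it had the largest log2 fold change of the family at day 2 (edgeR adjusted p = 8.66e-12), ahead of Anxa8 at 0.64 ± 0.14. It was 0.99 ± 0.07 higher at day 6 (edgeR adjusted p = 3.61e-14) and 1.31 ± 0.07 higher at day 12 (edgeR adjusted p = 2.00e-17). From day 2 to day 6 the difference of 0.14 ± 0.07 was not called (edgeR adjusted p = 0.0820), though it passed with limma on log2(TPM + 1) (0.33, adjusted p = 0.0111) and without day 2 A (0.21, edgeR adjusted p = 0.0174).

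Anxa9, an atypical member whose core has lost its calcium sites, lay on chromosome 3 (95296096 to 95307176, minus strand) at 2.11 to 4.14 TPM in control, 2.49 to 3.32 TPM at day 2, 1.98 to 3.60 TPM at day 6 and 3.33 to 3.74 TPM at day 12. Its standard errors on the log2 scale were 0.26 to 0.28, and no contrast was called, so a change of the size seen in Anxa2 or Anxa7 was not detectable at this depth. Its span overlaps Mindy1 on the other strand, which had 268 to 890 counts per library. How counting treated strand was not stated in the sources used here, so the low Anxa9 counts are uncertain. Anxa10 and Anxa13, annexins of stomach and intestine, were at or near 0 as given above.

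**Figure D2:**
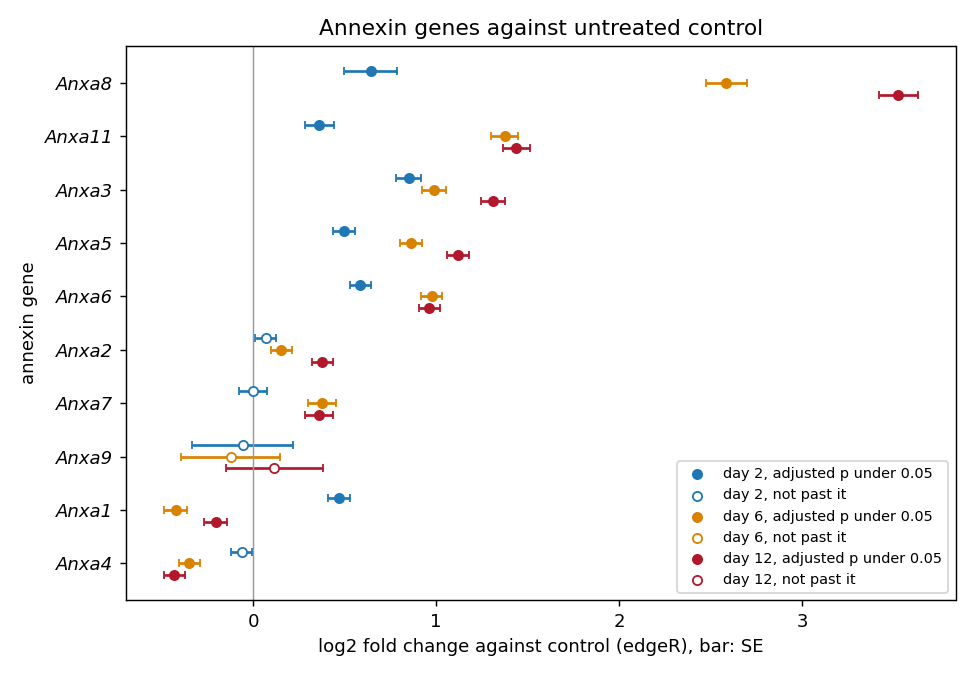
Log2 fold change against untreated control (edgeR, horizontal axis) of each annexin gene (vertical axis) at days 2, 6 and 12, with its SE as a bar. Filled points had an adjusted p under 0.05. Anxa8 reaches 3.53 at day 12, Anxa1 crosses from 0.47 at day 2 to -0.42 at day 6, and Anxa9 stays within its error of 0.

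Because members rose by unequal amounts, the order of levels shifted. In control the order by mean TPM was Anxa2, Anxa5, Anxa6, Anxa4, Anxa1, Anxa3, Anxa11, Anxa7, Anxa8 and Anxa9, and the neighbours Anxa6 and Anxa4, and Anxa11 and Anxa7, overlapped between libraries. At day 12 it was Anxa2, Anxa5, Anxa3, Anxa6, Anxa1, Anxa4, Anxa8, Anxa11, Anxa7 and Anxa9. Neighbours that overlapped there were Anxa3 and Anxa6, Anxa1 and Anxa4, and Anxa8 and Anxa11. Anxa8 thus passed Anxa7, with a TPM ratio of 0.249 ± 0.0266 before treatment, then 0.393 ± 0.0205 by day 2, 1.14 ± 0.126 by day 6 and 2.19 ± 0.208 by day 12.

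As shares of the annexin total in TPM, Anxa2 held 32.3% ± 0.184 (SD, n = 3) in control and 26.5% ± 0.539 at day 12. Anxa1 went from 11.5% ± 0.180 to 6.23% ± 0.284, after 12.5% ± 0.726 at day 2. Anxa4 went from 13.0% ± 0.388 to 6.20% ± 0.335. The gains were in Anxa5, from 15.6% ± 0.968 to 20.8% ± 0.594, Anxa3, from 10.6% ± 0.266 to 16.8% ± 0.321, and Anxa6, from 13.1% ± 0.548 to 16.1% ± 0.257. The smaller members Anxa8, from 0.416% ± 0.0520 to 3.02% ± 0.126, and Anxa11, from 1.73% ± 0.0924 to 2.94% ± 0.115, also gained.

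**Figure D3:**
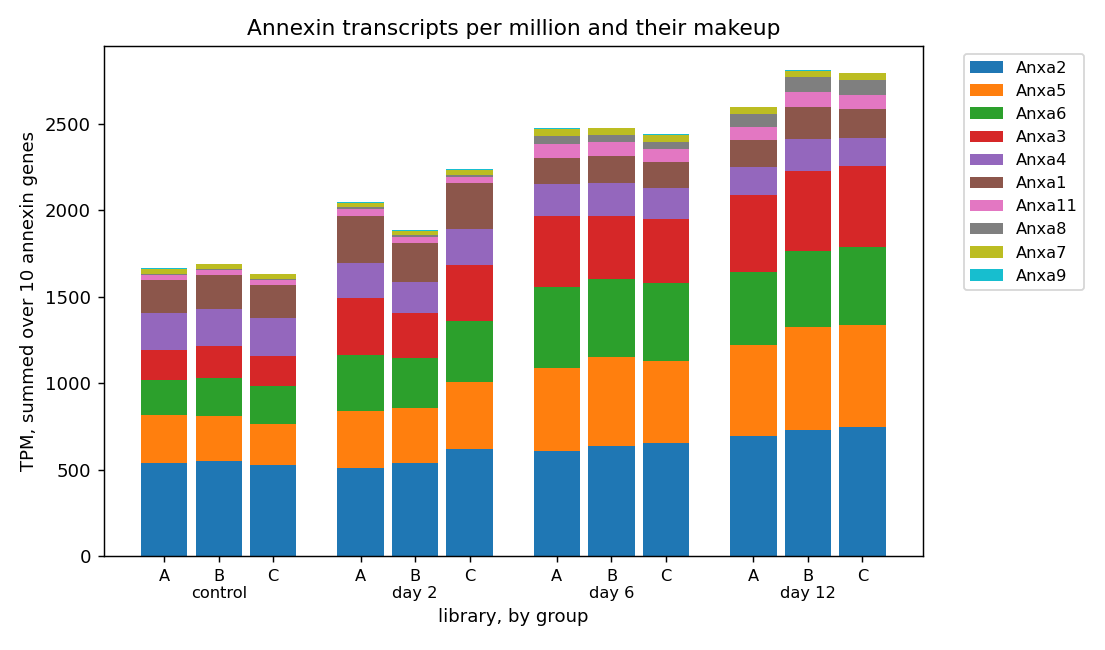
Summed TPM of the 10 annexin genes (vertical axis) in each library (A, B and C of each group), split by gene. The total goes from 1631 to 1688 TPM in control to 2598 to 2809 TPM at day 12, while the Anxa1 and Anxa4 segments shrink.

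The contrasts between treated days show when each member moved. From day 2 to day 6, 5 members were higher and 2 lower (22.6% and 22.3% of all tested genes). Those higher were Anxa5, Anxa6, Anxa7, Anxa8 and Anxa11, and those lower were Anxa1 and Anxa4. Anxa11 made most of its rise here, a log2 difference of 1.01 ± 0.07 (SE, edgeR adjusted p = 1.71e-13). From day 6 to day 12, 5 were higher and 0 lower (11% and 11% of all genes): Anxa1, Anxa2, Anxa3, Anxa5 and Anxa8. Of these 5, Anxa8 alone passed with limma on log2(TPM + 1), and the rise of Anxa1, 0.22 ± 0.06 (edgeR adjusted p = 0.0108), was also lost without day 6 A, day 6 C or day 12 B (edgeR adjusted p = 0.0594, 0.0585 and 0.127). From day 2 to day 12, 7 were higher and 2 lower (22.3% and 21.6% of all genes). On the TPM scale the median of all tested genes shifted by 0.12 from day 2 to day 6, and the fall of Anxa4 over that step, -0.29 ± 0.06 by edgeR (adjusted p = 1.21e-04), was -0.10 there and did not pass (limma adjusted p = 0.288).

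Across the 12 libraries, the genes most like the 4 members with the widest ranges were found by Pearson's r of log2 CPM among 9805 other genes with a mean of at least 10 CPM. These are descriptions over libraries that share the 4 groups. Nearest to Anxa8 were Fstl1 (r = 0.997), a secreted follistatin-like glycoprotein that rose from 159.6 to 549 CPM between control and day 12, Sat1 (r = 0.994), an enzyme of polyamine breakdown, and the kinase gene Alpk1 (r = 0.994). Nearest to Anxa11 were the arrestin-domain gene Arrdc4 (r = 0.994) and the secreted proteins Dkk3 (r = 0.994) and Nbl1 (r = 0.993). For Anxa3 they were the interferon-inducible GTPase gene Gbp2 (r = 0.988), the adaptor gene Pag1 (r = 0.979) and the adaptor gene Grb10 (r = 0.978). For Anxa5 they were the actin cross-linker gene Flna (r = 0.989), the protease inhibitor gene Slpi (r = 0.988) and Syt1 (r = 0.987), a calcium sensor of vesicle fusion. Among the members themselves, r was highest for Anxa8 and Anxa11, at 0.969, and lowest for Anxa8 and Anxa4, at -0.963. Next below the highest were Anxa5 and Anxa6 at 0.958 and Anxa3 and Anxa6 at 0.957.

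Genes of annexin functions were described from 3 lists. Of 12 tested ligands, partners and receptors of annexins, 6 were higher and 3 lower at day 2, 5 and 2 at day 6, and 5 and 2 at day 12, with median log2 fold changes of 0.31, 0.17 and 0.14. Of all tested genes, 10.3% were called higher and 10.9% lower at day 2. These shares were 26.8% and 27.6% at day 6, and 26.1% and 26.6% at day 12. The medians over all tested genes were -0.0015, -0.0060 and -0.0028. Ahnak, a giant scaffold protein that binds the Anxa2 and S100A10 complex, went from 41.5 ± 2.98 TPM (SD, n = 3) in control to 81.1 ± 10.3 at day 2, 156 ± 6.79 at day 6 and 137 ± 6.17 TPM at day 12 (edgeR adjusted p = 2.86e-15, 2.18e-23 and 1.77e-22). S100a4 was higher at day 2 (log2 fold change 1.02 ± 0.30, edgeR adjusted p = 0.0177), a call lost with limma on log2(TPM + 1) (adjusted p = 0.0944) and without control A, control C or day 2 C (edgeR adjusted p = 0.0825, 0.0728 and 0.0814). The 3 genes lower at day 2, named after their values were seen, were those of the plasminogen activators, Plat (log2 fold change -0.40, edgeR adjusted p = 5.09e-06) and Plau (-0.41, edgeR adjusted p = 1.27e-04), and of the urokinase receptor, Plaur (-0.27, edgeR adjusted p = 0.0449). The call of Plaur at day 2 was lost with DESeq2 (adjusted p = 0.118), with limma on log2(TPM + 1) (adjusted p = 0.0897) and without any 1 of the 6 libraries compared (edgeR adjusted p = 0.0517 to 0.127). At day 12 Plau was lower by a log2 fold change of -0.65 and Plaur by one of -0.66 (edgeR adjusted p = 7.93e-09 and 4.55e-07), while Plat was higher (0.18, edgeR adjusted p = 0.0115), a call lost without day 12 B (edgeR adjusted p = 0.0501). The formyl peptide receptor genes Fpr1, Fpr2 and Fpr3, which Anxa1 acts on, had no count in any library, and neither had the plasminogen gene Plg.

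Of 27 tested genes of plasma membrane repair, 3 were higher and 2 lower at day 2, 8 and 7 at day 6, and 9 and 5 at day 12, and their median log2 fold changes of -0.0049, 0.06 and 0.08 lay near those of all genes. The shares of all genes called higher and lower were 10.3% and 10.9%, 26.8% and 27.6%, and 26.1% and 26.6% at the 3 days. At day 2 the 3 higher genes were Cav1, which encodes the caveolar coat protein, and, named after their values were seen, Cavin1 and Ehd2, of the caveolar coat and neck (log2 fold changes 0.44 and 0.29, edgeR adjusted p = 4.81e-07 and 4.93e-04). Cav1 rose the most of them, from 47.8 ± 7.48 TPM in control to 127 ± 21.2 at day 2, and stood at 108 ± 2.90 at day 6 and 80.6 ± 5.24 TPM at day 12 (edgeR adjusted p = 3.15e-13, 2.11e-10 and 1.04e-07). Dysf, the ferlin whose loss impairs muscle membrane repair, was lower at day 6, from 19.6 ± 0.327 to 8.003 ± 0.424 TPM (edgeR adjusted p = 5.47e-14), and at day 12, at 12.3 ± 1.55 TPM (edgeR adjusted p = 2.39e-08). The calpain gene Capn1, a calcium-activated protease that acts in wound repair, fell from 82.0 ± 4.54 TPM to 54.7 ± 5.33, 48.3 ± 1.38 and 40.7 ± 3.03 TPM (edgeR adjusted p = 2.45e-07, 6.90e-14 and 1.96e-15). The ESCRT subunit gene Chmp4c was higher at days 6 and 12 (log2 fold changes 0.73 and 0.52, edgeR adjusted p = 1.32e-12 and 4.23e-09), and Syt7, a calcium sensor of lysosome exocytosis, at day 12 (2.83-fold, edgeR adjusted p = 1.70e-15).

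Of 20 tested genes that expose or recognise phosphatidylserine, the lipid to which Anxa5 binds, 6 were higher and 2 lower at day 2, 10 and 3 at day 6, and 11 and 5 at day 12, with medians of 0.09, 0.29 and 0.28. Over all tested genes the shares higher and lower were 10.3% and 10.9%, 26.8% and 27.6%, and 26.1% and 26.6%. The all-gene medians were -0.0015, -0.0060 and -0.0028. The receptor tyrosine kinase gene Axl went from 78.9 ± 1.74 TPM in control to 136 ± 2.29, 280.1 ± 36.2 and 236 ± 11.3 TPM, and the gene of its ligand Gas6, which bridges it to phosphatidylserine, from 5.86 ± 0.784 to 11.8 ± 1.64, 19.3 ± 1.60 and 19.3 ± 1.14 TPM (edgeR adjusted p of both genes between 4.24e-24 and 1.51e-07). Mfge8, another bridging protein, and Itgb5, a chain of its integrin receptor, were higher at day 6, at 362 ± 2.49 and 319 ± 14.6 TPM against 202 ± 10.4 and 138 ± 5.17 TPM in control (edgeR adjusted p = 7.81e-14 and 5.46e-19). Adgrb1, a phosphatidylserine receptor, was lower at days 6 and 12 (log2 fold changes -4.06 and -5.17, edgeR adjusted p = 1.33e-11 and 9.88e-13) and at day 2 (-0.97, edgeR adjusted p = 0.00480), the last not with limma on log2(TPM + 1) (adjusted p = 0.156). Its day 12 level was 0 to 0.36 TPM, and without day 12 B its log2 fold change there was -6.69, in a range of -6.69 to -4.65 over the libraries left out in turn, so that its size is loosely set.

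**Figure D4:**
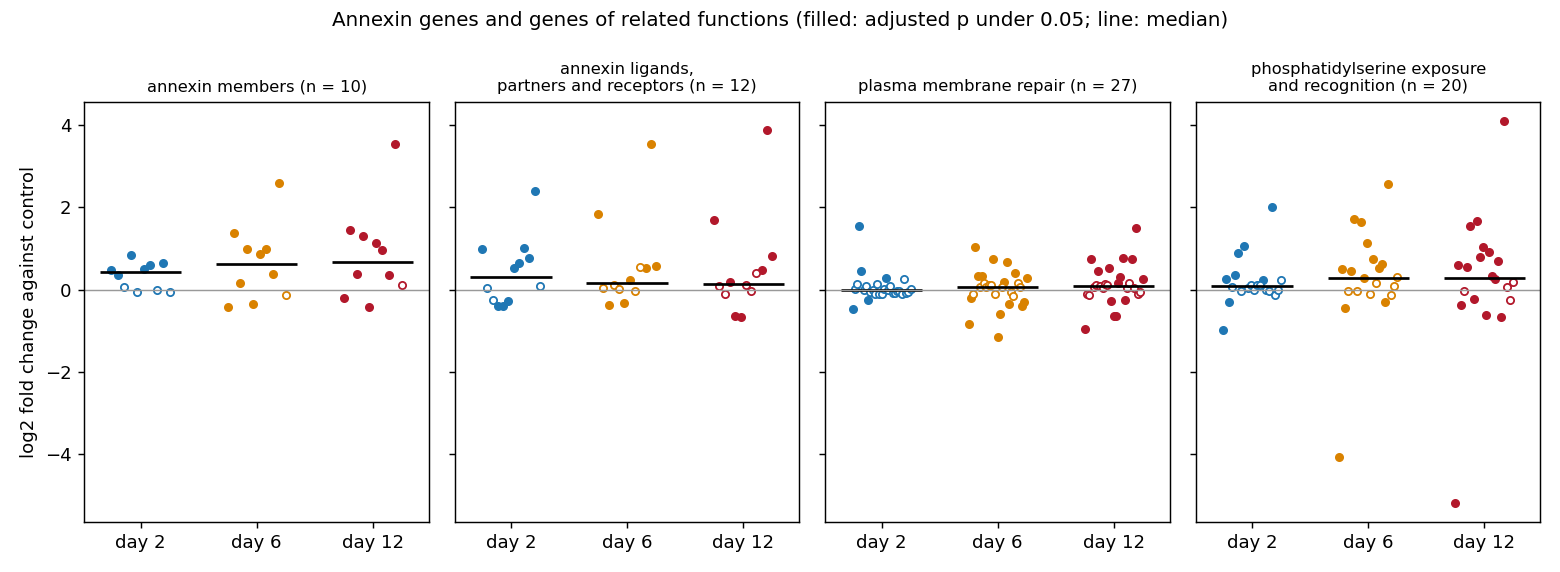
Log2 fold change against control (vertical axis) of the 10 annexin genes and of the 12, 27 and 20 tested genes of 3 related lists at days 2, 6 and 12 (horizontal axis). Points are genes, filled where the edgeR adjusted p is under 0.05, and lines are list medians. The annexin medians of 0.42, 0.62 and 0.67 lie above 0 at each day, and those of membrane repair lie within 0.08 of 0.

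Markers of other cell types were read beside these values. The summed level of 10 fibroblast and smooth muscle markers moved with the annexin total, at 6.00 to 11.2 TPM in control, 14.6 to 20.6 at day 2, 76.4 to 97.6 at day 6 and 298 to 364 TPM at day 12. Acta2, smooth muscle actin, made up 2.98 TPM of it in control, 72.0 TPM at day 6 and 294 TPM at day 12. The other 9 markers together stood at 3.18 to 7.26 TPM in control and 26.9 to 32.3 TPM at day 12, when Dcn was at 18.1 TPM. Of 6 tested markers of this list, 2 were higher and 1 lower than control at day 2 (10.3% and 10.9% of all genes). At day 6, 5 were higher and 0 lower (26.8% and 27.6%), as at day 12 (26.1% and 26.6%). Des went from 3.92 TPM in control to 8.55 TPM at day 12, while Myh11 and Pdgfrb reached at most 0.65 and 0.37 TPM. Col3a1 and Pdgfra had no count in any library, and Col1a2 and Lum had 4 and 1 counts over all 12 libraries. The 10 leukocyte markers summed to 28.5 to 36.3 TPM in control and 39.5 to 41.2 TPM at day 12, with Itgam, Cd3e and Tyrobp at 0. Most of this sum was Cd14, Cd68 and Csf1r, with means of 13.3, 8.21 and 10.4 TPM in control. At day 12 these 3 stood at 19.8, 14.4 and 4.06 TPM. Of 4 tested leukocyte markers, 3 were higher and 1 lower than control at day 12 (26.1% and 26.6% of all genes). The 8 endothelial markers summed to 6.25 to 11.2 TPM in control and 11.9 to 12.1 TPM at day 12, with Cdh5 and Kdr at 0. Flt1, the 1 endothelial marker tested, made up most of it, with means of 7.41 TPM in control and 10.7 TPM at day 12. It was called higher than control at each of the 3 days. The 12 markers of loop of Henle, distal tubule and collecting duct summed to at most 16.2 TPM in any library. The 8 podocyte and parietal markers stood at 100.3 to 109 TPM in control and 91.3 to 98.6 TPM at day 12. The part of these cell types in the annexin values was not tested.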

How the data were processed

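PolyA RNA of 12 libraries was measured by RNA sequencing. Tools named in the submitters' processing notes are RSEM 1.3.3, STAR 2.7.8a, cutadapt 2.3 and FastQC 0.11.8, and the build named there is GRCm38. The annotation release, strand use and filters are not given in the sources used here. The authors deposited RSEM's estimated counts, also called expected counts, as whole numbers without normalization, and TPM values in a second table. Both have 1 column per library, and all columns were used. Positions came from GENCODE M21 (GRCm38).

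Counts were fitted in R 4.3.3 with edgeR 4.0.16: filterByExpr by group, TMM scaling, and 1 robust quasi-likelihood model with group as its term over the 12 libraries (8 residual degrees of freedom). Tests are two-sided, adjusted by Benjamini-Hochberg over 13513 genes with a threshold of 0.05. Fold changes are from this fit, and CPM uses TMM-scaled totals. Each SE was worked back from the test, as the absolute log2 fold change over the square root of its F statistic. The fit was tested on simulated data. Alternatives were DESeq2 1.42.0, limma 3.58.1 on TPM, other scaling and filters, 2 groups only, and leaving out each library. Same-letter libraries of different groups showed no strong shared deviation, which does not exclude a shared culture or batch.

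The members and gene lists were chosen with earlier results of these data known. Named list genes are up to 4 at day 6 and up to 2 at days 2 and 12 per list, ranked by size of change, among genes that passed the test and averaged 5 CPM or more, plus S100a10, S100a11, S100a6, Ahnak and Pdcd6. Of the genes this rule names, 1 is not reported here. Ratios of TPM between genes, and the marker genes named, were chosen after their values were seen. Protein sequences were not used here.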

Additional observations from a re-analysis of the deposited data

Results flagged for a closer look

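Within the same contrast against control, effects at 2 days differed by the test of the difference itself, the edgeR contrast between those days, for the following members. They share the control libraries. From day 2 to day 6 the log2 difference was -0.89 for Anxa1, -0.29 for Anxa4, 0.37 for Anxa5, 0.39 for Anxa6, 0.38 for Anxa7, 1.94 for Anxa8 and 1.01 for Anxa11. From day 6 to day 12 it was 0.22 for Anxa1, 0.22 for Anxa2, 0.32 for Anxa3, 0.26 for Anxa5 and 0.94 for Anxa8. From day 2 to day 12 it was -0.67 for Anxa1, 0.31 for Anxa2, 0.46 for Anxa3, -0.37 for Anxa4, 0.62 for Anxa5, 0.38 for Anxa6, 0.36 for Anxa7, 2.89 for Anxa8 and 1.08 for Anxa11. Adjusted p-values ran from 1.74e-22 (Anxa8, day 12 against day 2) to 0.0108 (Anxa1, day 12 against day 6). Anxa1 is the one of these genes with called effects of opposite sign, 0.47 at day 2 and -0.42 at day 6.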

How the results depend on the processing

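Over the 6 contrasts and the alternatives, the log2 fold changes of the members gave 1200 values, of which 1155 kept direction and side of the threshold, 19 lost the call, 4 gained it and 22 changed sign. The sign changes were in values that were not called. They were Anxa7 at day 2 against control (0.00083 without the low-count filter, 0.0050 with RLE scaling, 0.0041 with DESeq2, and -0.048 to 0.032 leaving out each library), Anxa9 at day 6 against day 2 (0.029 with limma on log2(TPM + 1) and 0.028 on log2(TPM + 0.1)), and, leaving out each library in turn, Anxa9 (-0.23 to 0.20 at day 2, -0.29 to 0.13 at day 6, -0.055 to 0.37 at day 12 against control and -0.22 to 0.17 at day 6 against day 2), Anxa6 (-0.042 to 0.0097) and Anxa7 (-0.0486 to 0.0091), both at day 12 against day 6. Of the partner genes at day 2, Sri was -0.27 and -0.28, Dysf 0.19 and 0.20 and Pdcd6 -0.0135 and -0.0137 with limma on the 2 TPM scales. Leaving out each library, Pdcd6 at day 2 was -0.037 to 0.074, and S100a11 -0.085 to 0.030 at day 6 and -0.103 to 0.024 at day 12, Plau -0.015 to 0.072 at day 6 and Cavin1 -0.0064 to 0.125 at day 12.

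With limma on log2(TPM + 1) and log2(TPM + 0.1), 1744 and 1725 genes in all passed at day 2 in place of 2860, and 1379 and 1300 for day 12 against day 6 in place of 2971. Members lower at day 12 against control were 1 and 1 in place of 2, members lower at day 6 against day 2 were 1 and 1 in place of 2, and members higher at day 12 against day 6 were 1 and 1 in place of 5. The cause was not tested. The split of higher and lower genes also moved on log2(TPM + 1), to 3537 and 2181 at day 6 against control (3615 and 3729 by edgeR), to 2980 and 2398 at day 12 against control (3532 and 3601), to 3372 and 1383 at day 6 against day 2 (3055 and 3007), to 2677 and 1571 at day 12 against day 2 (3009 and 2922) and to 496 and 883 at day 12 against day 6 (1482 and 1489). Library totals without TMM scaling, chosen after the data were seen, changed no count of members by over 1.5 times. With the replicate block, 2932 genes passed at day 2, 7370 at day 6 and 7164 at day 12 against control, and the counts of members called were the same in all 6 contrasts. Same-letter libraries showed no strong shared deviation: 1 of 18 same-letter pairs had a correlation of deviations over 0.1. The deviations are from means of 3 libraries, so this cannot exclude that a letter marks a shared culture or batch. Shares of the annexin total are given above in TPM, which corrects for transcript length. In CPM, which does not, Anxa2 held 25.6% in control in place of 32.3%. There Anxa6 held the largest share at days 2, 6 and 12, at 22.9%, 26.8% and 23.7%. Anxa2 held 20.9%, 19.8% and 20.6% at those days in CPM. Depth limits Anxa9 (14 to 41 counts) and control Anxa8 (54 to 74 counts).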
